A study of Mus musculus with 4 samples.

Results

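The brakes and starters of the G1 phase of the cell cycle were compared between corticotropes and melanotropes, the pituitary cells that express the hormone precursor POMC. They were the 10 genes Cdkn1a, Cdkn1b, Cdkn1c, Cdkn2a, Cdkn2b, Cdkn2c, Cdkn2d, Ccnd1, Ccnd2 and Ccnd3, chosen by gene symbol, with 16 transcripts of 33072 in the deposited table (10 of 24063 genes). RNA-seq after ribosomal depletion had been made from each cell type, with 2 libraries each and 4 in all. Both cell types came from C57B6 mice of a POMC-EGFP line. GFP-positive cells were sorted from the dissected anterior lobe (corticotropes) or intermediate lobe (melanotropes), so all 4 libraries carry the transgene and were gated on its expression. The labels name no treatment, age or sex, and leave unstated if replicates were separate animals or sorts. The spread between libraries may therefore be technical, and the p-values rest on it.

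D cyclins bind and activate the kinases CDK4 and CDK6, which phosphorylate the retinoblastoma protein and let a cell pass from G1 into S phase. Ink4 proteins (the Cdkn2 genes) block CDK4 and CDK6 directly, and Cip/Kip proteins (the Cdkn1 genes) bind whole complexes of cyclin and kinase. In the mouse pituitary this pathway is known from knockouts, because loss of Cdkn1b, Cdkn2c or Rb1 leads to overgrowth or tumours of the intermediate lobe.

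Of these genes, 1 was lower and 1 higher in melanotropes past an adjusted p of 0.05 (limma, Benjamini-Hochberg adjustment over all genes tested). Cdkn1a, the gene of the inhibitor p21, was lower, at 3.64 ± 0.637 FPKM in corticotropes against 0.341 ± 0.0509 in melanotropes (mean ± SD, n = 2 libraries each). Ccnd3, the gene of cyclin D3, was higher, at 16.6 ± 1.87 against 24.4 ± 2.73 FPKM. FPKM count reads per length of transcript and per library total, and are here rescaled between libraries unless called deposited. Of the members 8 were tested, and Cdkn2a and Cdkn2b did not reach 1 FPKM in 2 libraries. Over all 13046 genes tested 37.2% were called, 18.3% lower and 18.9% higher, so 1 of 8 in each direction is near the share among all genes. Libraries of the cell types did not overlap for 6 of the 8 tested members, 5 of them lower and 1 higher in melanotropes. Over all genes 71.1% did not overlap, 35.4% lower and 35.7% higher. On the deposited scale 6 members were called lower and 0 higher (limma), beside 73.9% of all genes called, 66.8% lower and 7.14% higher, and Ccnd3 was not among them.

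The promoters of the genes that passed the test are shown. Each gene has a pair of start sites in RefSeq, and the deposited table holds transcripts from both, with starts of Cdkn1a a few bases away. Each line gives the 250 bases before a start (RefSeq, GRCm38.p6, plus strand), 5′ to 3′. Capitals mark a p53 site, a pair of abutting half-sites with at most 1 mismatch in 20 letters, or the GC box GGGCGG, searched on both strands.
Cdkn1a upstream start, chr17:29090729-29090978: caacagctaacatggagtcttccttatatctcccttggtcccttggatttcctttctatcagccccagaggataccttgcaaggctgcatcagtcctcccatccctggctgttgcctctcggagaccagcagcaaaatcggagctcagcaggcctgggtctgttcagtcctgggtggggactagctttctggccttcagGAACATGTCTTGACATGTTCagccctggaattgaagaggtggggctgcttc
Cdkn1a downstream start, chr17:29093519-29093768: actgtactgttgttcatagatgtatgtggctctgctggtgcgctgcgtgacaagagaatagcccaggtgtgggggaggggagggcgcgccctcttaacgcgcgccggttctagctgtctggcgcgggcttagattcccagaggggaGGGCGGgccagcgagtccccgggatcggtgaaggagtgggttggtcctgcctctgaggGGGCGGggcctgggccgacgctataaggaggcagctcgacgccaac
Ccnd3 upstream start, chr17:47504801-47505050: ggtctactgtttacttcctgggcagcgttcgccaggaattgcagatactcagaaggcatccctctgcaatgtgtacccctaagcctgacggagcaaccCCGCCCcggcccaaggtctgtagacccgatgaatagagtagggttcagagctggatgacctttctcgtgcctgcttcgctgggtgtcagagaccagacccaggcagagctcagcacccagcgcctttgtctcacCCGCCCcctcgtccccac
Ccnd3 downstream start, chr17:47593217-47593466: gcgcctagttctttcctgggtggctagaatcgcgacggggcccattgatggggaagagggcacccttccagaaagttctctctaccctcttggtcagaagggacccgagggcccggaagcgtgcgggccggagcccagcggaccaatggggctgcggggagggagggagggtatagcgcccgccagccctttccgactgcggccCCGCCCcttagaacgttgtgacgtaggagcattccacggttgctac
The p53 match of Cdkn1a, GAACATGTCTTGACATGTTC, lies 51 to 32 bases before the upstream start. Such a match was found in 25 of 32851 windows of the same length (0.0761%), and the motif was searched for after this window had been read. The GC box, with 2 copies at the downstream start of Cdkn1a, 2 at the upstream start of Ccnd3 and 1 at the downstream start of Ccnd3, was found in 32.7% of windows. The downstream windows of both genes hold 64.8% G and C with 19 CpG, the upstream window of Ccnd3 59.6% with 11, and the upstream window of Cdkn1a 54.0% with 2. A match is a description of these letters and not a measured binding site.

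Depth was not listed, but low FPKM values of short transcripts were spaced in whole steps, from which the reads behind a value were implied. Reads per unit of FPKM times kilobase were lowest in corticotrope replicate 1, and 1.90 to 2.03 times as high in the other 3 libraries. The columns had been deposited with nearly equal sums, of which Pomc transcripts took 27.2% to 27.8% in corticotropes and 49.7% to 50.9% in melanotropes, which leaves a smaller share to all other genes in melanotropes. On the deposited scale the median gene stood at a log2 fold change of -0.42 and after rescaling at 0.00, and differences below are relative to that median gene. Of all calls 9.65% were higher on the deposited scale and 50.8% after rescaling. The labels held, with Pax7 and Pcsk2 higher and Crhr1 lower in melanotropes, and Pomc at 30630.3 FPKM or more in every library. Markers of anterior lobe hormone cells other than corticotropes, Gh and Prl the most abundant, were lower in melanotropes in 12 of 12 genes. Of these, Tshb, Pou1f1, Gnrhr, Ghrhr, Foxl2, Nr5a1 and Dlk1 were under 1 FPKM in both melanotrope libraries. These genes passed the filter through corticotropes alone, so a lower value was set by passing. All markers of this set summed to 5870 and 5637 FPKM in corticotrope libraries against 14.5 and 62.7 in melanotrope libraries, with Ghrhr listed at 0 in melanotrope replicate 1. Endothelial and pericyte markers (4 of 5 tested lower) summed to 14.1 and 20.1 against 6.70 and 5.07 FPKM. Markers of posterior lobe and glia (3 of 4 tested higher) summed to 5.48 and 6.62 against 25.3 and 27.6 FPKM, with Olig2 listed at 0 in both corticotrope libraries. Stem cell and blood markers had 2 higher and 2 lower each, and fibroblast markers 2 of 3 tested higher. Among the called markers of these other sets, Emcn, Rgs5, Cdh26 and Hba-a1 likewise passed the filter through corticotropes alone. Rax, Lum, Sox9 and Csf1r passed it through melanotropes alone. In sorted bulk cells, fewer cells of a type and less RNA per cell cannot be told apart.

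**Figure D1:**
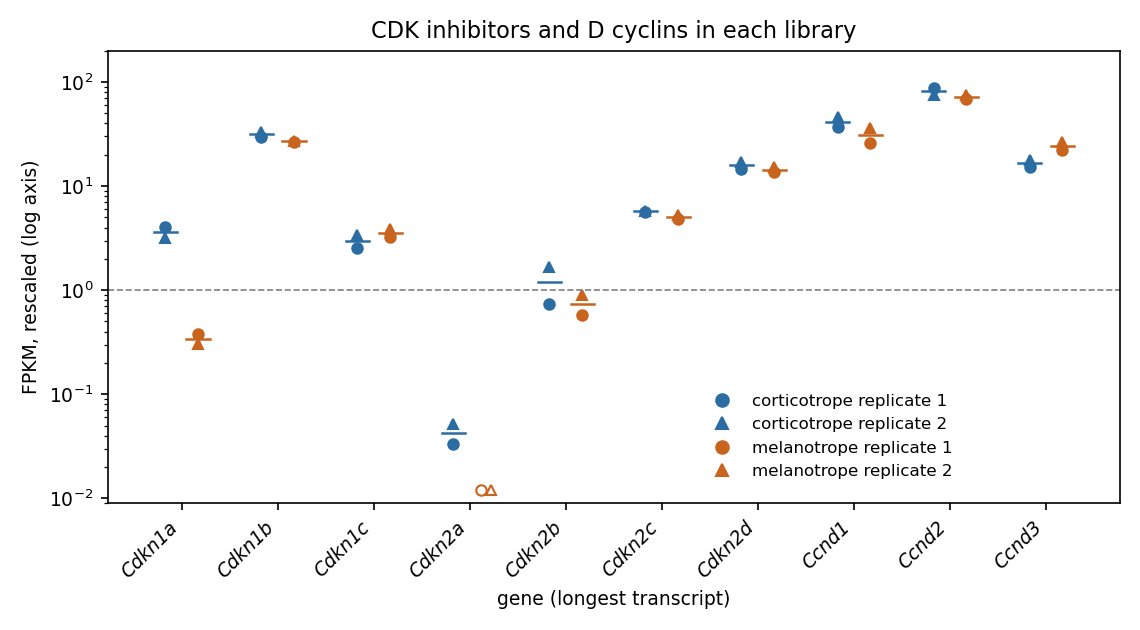
Rescaled FPKM of each gene (log axis) in the 4 libraries, with bars at the mean of each cell type, a dashed line at the 1 FPKM filter and open symbols for values listed at 0. Cdkn1a is the expressed member whose cell types lie farthest apart, 3.18 and 4.09 FPKM against 0.305 and 0.377.

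The order of the levels was nearly the same in both cell types, apart from Cdkn1a. In corticotropes Ccnd2 stood first, then Ccnd1, Cdkn1b, Ccnd3, Cdkn2d, Cdkn2c, Cdkn1a, Cdkn1c, Cdkn2b and Cdkn2a. The libraries of Ccnd3 and Cdkn2d overlapped there, as did those of Cdkn1a and Cdkn1c. In melanotropes Cdkn1a moved from rank 7 to rank 9, below Cdkn2b, and the others kept their sequence. The libraries of Ccnd1 overlapped there with those of Cdkn1b and of Ccnd3. Among all tested genes Ccnd2 was higher than 96.6% of genes in corticotropes and 95.6% in melanotropes, and Cdkn1b higher than 87.2% and 83.9%. Cdkn1a was higher than 24.6% of tested genes in corticotropes and 1.36% in melanotropes. It was among the tested genes through its corticotrope libraries alone, so a low place in melanotropes was largely set by the filter.

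Among the Cip/Kip inhibitors the difference lay with Cdkn1a (chromosome 17, 29090986 to 29100722, plus strand). Its rescaled FPKM were 4.09 and 3.18 in the corticotrope libraries and 0.377 and 0.305 in the melanotrope libraries. Both melanotrope libraries were thus far below both corticotrope libraries, with a ratio of means of 10.6. Behind these values stood an implied 1097 and 1635 reads in corticotropes and 139 and 113 in melanotropes. On the scale of log2(FPKM + 1) the log2 fold change, melanotrope over corticotrope, was -1.78 (SE 0.12, adjusted p = 2.91e-04, limma). This scale understates low genes, and the value was -3.08 with a pseudocount of 0.1 and -0.69 with one of 5 in place of 1. The call was kept in all 13 alternatives that tested the gene, the deposited scale included (adjusted p 1.17e-07 to 0.00374). Cdkn1a passed the expression filter through its corticotrope libraries alone, so that a difference was set by passing, and it went untested without either of them. A filter on the mean over all 4 libraries, likewise met through the corticotrope values alone, gave an adjusted p of 2.95e-04 (limma). With no filter the adjusted p was 0.00374 (limma). Markers of the other anterior hormone cells (12 of 12 lower) and of endothelial cells and pericytes (4 of 5 tested lower) moved with Cdkn1a. As given above, several of these markers also passed the filter through corticotropes alone. The part of these cells in its difference was not tested.

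In a fit over all 19847 transcripts that passed the filter, 2 of the 13 tested member transcripts were called lower and 3 higher, beside 38.3% called, 19.1% lower and 19.2% higher. Both Cdkn1a transcripts were the lower ones. Like the gene, they passed the filter through the corticotrope libraries alone, so that a difference was set by passing. NM_001111099, from the upstream start beside the p53 match shown above, had a log2 fold change of -1.78 (adjusted p = 2.60e-04, limma). NM_007669, from the downstream start with the GC boxes, had one of -1.82 (adjusted p = 2.31e-04, limma). The downstream transcript stood at 1.04 to 1.06 times the upstream transcript in each library, corticotrope and melanotrope alike. Transcripts of a gene share most of their exons and reads, so these are not independent measurements. The authors' deposited table gave log2 fold changes of -4.83 and -5.01 for the same transcripts, with FDR of 0.381 and 0.225. Those come from another method than the rescaled log2(FPKM + 1) used here, so the sizes cannot be compared directly. In the authors' deposited table, whose test was run on FPKM values, 0 of the 16 member transcripts had an FDR under 0.05 and 2 had a p-value under 0.05, both of Cdkn1a. An FDR under 0.05 was held by 754 of all 33072 transcripts of the authors' deposited table, so 0 of 16 is near that share. The genes nearest to Cdkn1a in rescaled log2 values over the 4 libraries were Myoc, Plekhg1 and Asb4, at Euclidean distances of 0.177, 0.274 and 0.282.

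Cdkn1b (chromosome 6, 134920401 to 134925525) encodes p27, the inhibitor whose loss enlarges the intermediate lobe. It was by far the most abundant inhibitor, with 29.5 and 33.4 FPKM in corticotropes and 26.7 and 27.4 in melanotropes. The melanotrope libraries lay just below the corticotrope libraries, without overlap. The log2 fold change was -0.21 with a 95% interval of -0.42 to 0.00 and an adjusted p of 0.110 (limma), and it was called in 2 of 15 alternatives, among them the deposited scale at -0.68 (adjusted p = 0.00109; over all 15, 0.00109 to 0.363). The interval of the rescaled fit holds no decrease as large as that of Cdkn1a.

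Cdkn1c (chromosome 7, 143458339 to 143461050) encodes p57, an imprinted gene known in the pituitary from progenitors that leave the cell cycle. It was at 2.54 and 3.43 FPKM in corticotropes and 3.21 and 3.90 in melanotropes, and the cell types overlapped. The log2 fold change was 0.20 with an interval of -0.15 to 0.55 (adjusted p = 0.320, limma), and it turned to -0.17 on the deposited scale, again without a call (adjusted p = 0.272; over 15 alternatives 0.0625 to 0.971). At an unadjusted p under 0.05 (limma), 2 of 8 tested genes near Cdkn1c were higher and 0 lower, beside 3092 higher and 3052 lower of all 13046 genes. After adjustment 0 of these 8, imprinted ones among them, were called in either direction (limma), beside 37.2% of all genes. There was 1 higher without melanotrope replicate 1, with equal sums of transcripts other than Pomc or with summed transcripts, and on the deposited scale 2 were lower.

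Within a library, shares of the family do not depend on scaling between libraries, but they use the same Cdkn1a values as the call. A lower Cdkn1a raises the shares of the others, and Cdkn1b itself had a lower mean in melanotropes. Cdkn1b took 81.7% and 83.5% of the summed Cip/Kip FPKM in corticotropes and 88.1% and 86.7% in melanotropes. Cdkn1a took 11.3% and 7.96% in corticotropes but 1.25% and 0.967% in melanotropes. Cdkn1c, at 7.03% and 8.56% against 10.6% and 12.3%, thus overlapped with Cdkn1a in corticotropes and stood well above it in melanotropes. With 2 libraries against 2 an exact permutation test cannot go below p = 0.333, so no test is given for the shares.

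**Figure D2:**
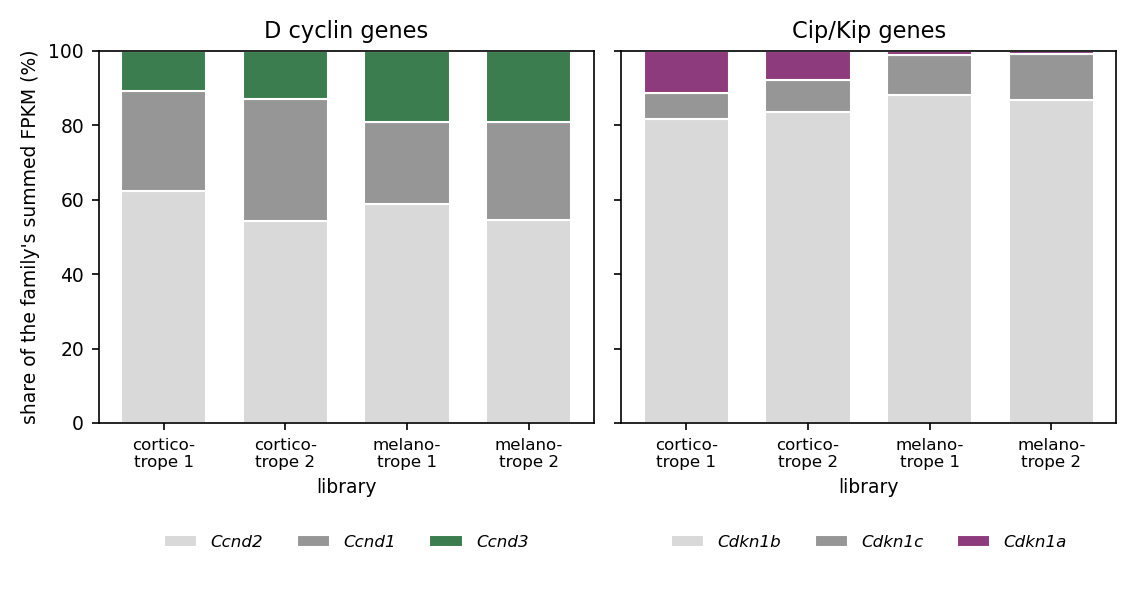
Share of each gene in the summed deposited FPKM of the D cyclins (left) and of the Cip/Kip inhibitors (right), in percent, for each of the 4 libraries. Ccnd3 takes 10.9% and 12.9% of the D cyclin sum in corticotropes and 19.02% and 19.2% in melanotropes, and the Cdkn1a band nearly vanishes in melanotropes.

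Of the 2 Ink4 inhibitors tested, 0 were called (limma), beside 37.2% of all genes, and 2 genes are too few to compare with that share. At an unadjusted p under 0.05 (limma) there were also 0, beside 3092 higher and 3052 lower of all 13046 genes. Cdkn2d (chromosome 9, 21288464 to 21291209), the gene of p19INK4d, was at 14.7 and 17.1 FPKM in corticotropes and 13.7 and 15.2 in melanotropes, which overlapped. Its log2 fold change was -0.13 with an interval of -0.38 to 0.12 (adjusted p = 0.361, limma). Cdkn2c (chromosome 4, 109660876 to 109666756), the gene of p18, was at 5.67 and 5.75 against 4.84 and 5.23 FPKM, without overlap. Its log2 fold change was -0.15 with an interval of -0.36 to 0.05 (adjusted p = 0.199, limma). Both were called lower on the deposited scale, where 66.8% of all genes were lower. The log2 fold change there was -0.58 for Cdkn2d (adjusted p = 0.00233, limma) and -0.56 for Cdkn2c (adjusted p = 0.00278, limma). Each was called in 1 of 15 alternatives, which was that scale.

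Within the Ink4 family Cdkn2d was the main member in every library. It held 69.5% and 69.6% of the family's summed FPKM in corticotropes and 71.7% and 71.3% in melanotropes, a small step without overlap, and Cdkn2c held 26.8% and 23.4% against 25.3% and 24.6%, which overlapped. Cdkn2c has a short transcript, NM_007671, and a long one with a further upstream start, NM_001301368. The short one stood at 1.56 times the long one in both corticotrope libraries, and at 1.47 and 1.55 times in melanotropes. These are ratios of FPKM between transcripts that share reads and differ in length, so they do not measure the use of each start.

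Cdkn2b and Cdkn2a are neighbours on chromosome 4. Cdkn2b (89306289 to 89311032), the gene of p15, was at 0.744 and 1.67 FPKM in corticotropes and 0.572 and 0.892 in melanotropes. The corticotrope replicates were farther apart than the cell types, with an implied 144 and 617 reads against 152 and 237. Cdkn2a (89274473 to 89294619) encodes p16 and p19ARF in different reading frames from different first exons, and is known as silent in most young tissues. It was listed at 0.0331 and 0.0519 FPKM in corticotropes, from an implied 4 and 13 reads, and at 0 in both melanotrope libraries. Its p16 transcript, NM_001040654, was likewise at 0.0331 and 0.0433 FPKM and at 0. Neither gene passed the filter. With no filter neither was called, at log2 fold changes of -0.32 for Cdkn2b (adjusted p = 0.400, limma) and -0.060 for Cdkn2a (adjusted p = 0.0683, unadjusted 0.0202, limma). The Cdkn2a value rests on the few reads given above.

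Among the D cyclins, which kept their order of levels, Ccnd3 differed. Ccnd3 (chromosome 17, 47505051 to 47599688) was at 15.3 and 17.9 FPKM in corticotropes and 22.4 and 26.3 in melanotropes. The melanotrope libraries were the higher ones, without overlap, with a log2 fold change of 0.53 (SE 0.11, 95% interval 0.25 to 0.81, adjusted p = 0.0158, limma). Its 3 transcripts, from both starts shown above, were each called higher, with log2 fold changes of 0.52 to 0.56. The authors' deposited table gave 0.56 to 0.57 for them, each with an FDR of 1. On the deposited scale the log2 fold change of Ccnd3 was 0.07 (adjusted p = 0.530). Without corticotrope replicate 1 it was 0.38 (adjusted p = 0.0620) and without melanotrope replicate 2 it was 0.42 (adjusted p = 0.0579), and the call was kept in the other 12 of 15 alternatives (over all 15, 5.27e-05 to 0.530). Markers of posterior lobe and glia (3 of 4 tested higher) and of fibroblasts (2 of 3 tested higher) moved with Ccnd3, and their part was not tested. Among these markers Rax and Lum passed the filter through melanotropes alone.

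Ccnd1 (chromosome 7, 144929931 to 144939925), the cyclin that mitogens typically induce, was at 37.3 and 45.7 FPKM in corticotropes and 26.1 and 36.0 in melanotropes. The melanotrope libraries were lower but spread widely, and corticotrope replicate 1 and melanotrope replicate 2 differed by little. Its log2 fold change was -0.42 with an interval of -0.84 to 0.00 (adjusted p = 0.109, limma). It was called lower in 4 of 15 alternatives, among them without corticotrope replicate 1 (-0.59, adjusted p = 0.0483), without melanotrope replicate 2 (-0.64, adjusted p = 0.0216) and on the deposited scale (-0.89, adjusted p = 0.00293; over 15 alternatives 3.31e-04 to 0.383).

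Ccnd2 (chromosome 6, 127125709 to 127151048), the most abundant member, was at 87.4 and 75.4 FPKM in corticotropes and 69.4 and 74.7 in melanotropes. Corticotrope replicate 2 and melanotrope replicate 2 were nearly equal. The log2 fold change was -0.17 with an interval of -0.42 to 0.08 (adjusted p = 0.236, limma), and -0.65 with a call on the deposited scale (adjusted p 0.00319, and up to 0.604 in the other alternatives).

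Ratios within a library do not depend on scaling between libraries, but they use the same Ccnd3 values as the call and were not tested. Ccnd3 over Ccnd1 was 0.410 and 0.392 in corticotropes and 0.860 and 0.730 in melanotropes, and Ccnd3 over Ccnd2 was 0.175 and 0.238 against 0.323 and 0.352. Ccnd2 over Ccnd1, at 2.35 and 1.65 against 2.66 and 2.07, overlapped between the cell types. The D cyclin FPKM summed to 140.0 and 139.0 in corticotropes against 117.9 and 137.0 in melanotropes, lower in melanotropes by less than the spread between the melanotrope libraries. The D cyclin sum over the sum of the 7 inhibitors was 2.44 and 2.15 against 2.39 and 2.59, which overlapped.

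**Figure D3:**
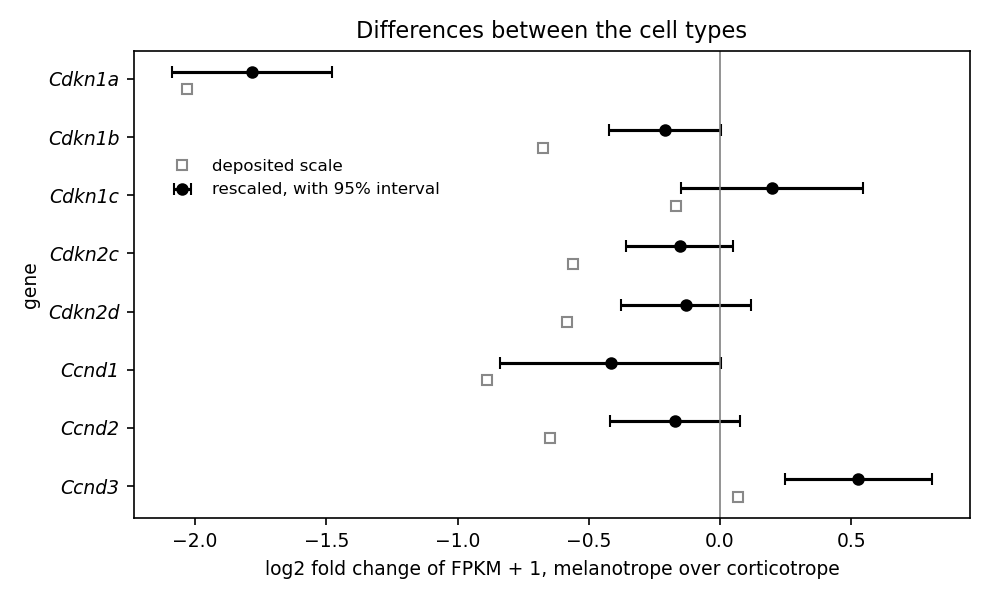
Log2 fold change, melanotrope over corticotrope, of the 8 tested genes: black points with 95% intervals are rescaled values and open squares the values on the deposited scale. The intervals of Cdkn1a and Ccnd3 lie clear of 0, while on the deposited scale Ccnd3 sits at 0.07 and Cdkn1c turns to -0.17.

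The partners of these genes were called about as often as other genes. Of 15 tested genes for CDKs, E cyclins, pocket proteins and E2F factors, 4 rose, 1 fell and 10 did not pass (limma). That is 5 of 15, beside 37.2% of all genes (18.9% higher, 18.3% lower), and the median log2 fold change was 0.07, beside 0.00. Cdk6, the kinase partner of D cyclins, rose from 1.26 and 1.29 FPKM to 3.97 and 4.65 (log2 fold change 1.22, adjusted p = 5.05e-04, limma). Its sister kinase Cdk4 was far more abundant and alike in both cell types, at 69.9 and 65.4 against 69.4 and 64.6 FPKM. Tfdp1, the dimer partner of E2F factors, rose from 10.7 and 11.4 to 18.0 and 17.4 FPKM. Its call was lost on the deposited scale (adjusted p 0.0936, the highest of 15 alternatives that began at 2.45e-05). The other members that rose were E2f2 and Ccne1. Rb1, which encodes the retinoblastoma protein, fell from 5.99 and 5.73 to 4.19 and 4.24 FPKM (log2 fold change -0.40, adjusted p = 0.0127, limma), and was not called without melanotrope replicate 1 (0.0740) or 2 (0.0695). Without either melanotrope library this list had 2 higher and 0 lower, without corticotrope replicate 1 it had 2 lower, and on the deposited scale 1 higher and 9 lower, where 66.8% of all genes were lower. Genes named from here on without an adjusted p, and Cdk4, E2f2, Ccne1 and Mdm2, were chosen after their values had been seen, apart from Skp1a, Mcm2, Zmat3, Ccnl1 and Cdk5r1.

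Of 25 genes of S phase and mitosis, 14 did not pass the filter. Pcna, the sliding clamp of DNA polymerase, was well expressed, at 22.6 and 26.7 FPKM in corticotropes and 22.3 and 23.8 in melanotropes. The proliferation marker Mki67 was low, at 0.248 and 0.433 FPKM in corticotropes and 0.160 and 0.281 in melanotropes, which overlapped. All genes that did not pass the filter had means under 1 FPKM in each cell type. Their means were lower in melanotropes for all but Aurka. Ccnb1, Aurkb, Plk1, Cenpf, Ube2c and Cdc6 were lower without overlap, and none of these differences was tested. Of 11 tested, 1 rose and 0 fell (limma), beside 18.9% and 18.3% of all genes. At an unadjusted p under 0.05 (limma) there was 1 each way, beside 3092 higher and 3052 lower of all 13046 genes. The gene that rose was Mcm2, a subunit of the replicative helicase, from 8.53 and 8.15 to 13.6 and 12.9 FPKM, which was no call on the deposited scale (adjusted p 0.151). The median log2 fold change of the tested genes was -0.01, which leaves out the genes below the filter. On the deposited scale 0 of this list were higher and 8 lower (66.8% of all genes lower), and without corticotrope replicate 1 there was 1 lower.

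Genes that control the level of p27 or the transcription of the inhibitors were also examined. Of 9 tested genes for the breakdown of p27, 1 rose and 1 fell (limma), beside 18.9% and 18.3% of all genes, with a median of 0.03 on the log2 scale. Cks1b, the cofactor that presents p27 to its ubiquitin ligase, fell from 6.01 and 5.70 to 4.21 and 3.65 FPKM (adjusted p = 0.0115, limma), and was not called without melanotrope replicate 2 (adjusted p = 0.0738). Skp1a rose from 151.9 and 156.2 to 206.7 and 195.0 FPKM, was not called without any 1 of the 4 libraries, and turned to a log2 fold change of -0.10 on the deposited scale. The list had 0 higher and 8 lower on that scale (66.8% of all genes lower), and 0 lower without melanotrope replicate 2.

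Of 23 tested regulators of Cdkn transcription 1 rose and 6 fell (limma), beside 18.9% and 18.3% of all genes, and the median of their log2 fold changes was -0.07. Id1, an inhibitor of bHLH factors, fell from 6.16 and 6.66 to 1.28 and 1.29 FPKM (log2 fold change -1.70, adjusted p = 1.14e-04, limma). Smad3, a transducer of TGF-beta signals, fell from 30.5 and 30.2 to 12.4 and 16.7 FPKM (log2 fold change -1.03, adjusted p = 0.00273, limma). Trp53, the gene of p53, rose from 5.62 and 6.47 to 8.13 and 7.99 FPKM (log2 fold change 0.37, adjusted p = 0.0258, limma). It was not called without corticotrope replicate 1 or either melanotrope library, nor with no filter, and stood at -0.056 on the deposited scale. These regulators numbered 0 higher and 3 lower without melanotrope replicate 2, 4 lower without melanotrope replicate 1, 0 higher without corticotrope replicate 1, and 0 higher and 18 lower on the deposited scale, where 66.8% of all genes were lower.

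Cdkn1a is a classic target of p53, and other p53 targets went both ways. Of 17 tested, 6 fell, 4 rose and 7 did not pass (limma). Over all genes 18.3% fell and 18.9% rose. The median of the targets' log2 fold changes was -0.12. Sesn2, a sestrin that restrains mTORC1, fell from 22.0 and 21.5 to 8.09 and 5.50 FPKM (log2 fold change -1.57, adjusted p = 9.90e-04, limma). Trp53inp1, a p53-induced stress protein, fell from 28.3 and 31.5 to 11.1 and 10.4 FPKM (log2 fold change -1.39, adjusted p = 2.02e-04, limma). Bbc3, Sesn1, Perp and Ccng1 also fell. Plk2, a polo-like kinase, rose from 9.01 and 10.4 to 33.3 and 44.2 FPKM (log2 fold change 1.88, adjusted p = 4.09e-04, limma). Zmat3 rose from 3.42 and 2.86 to 6.44 and 5.99 FPKM, and Aen and Bax also rose. Mdm2, the ligase that degrades p53, was at 20.6 and 22.2 against 18.6 and 18.97 FPKM and did not pass (adjusted p = 0.117, limma). On the deposited scale 2 were higher and 12 lower, beside 7.14% and 66.8% of all genes. The markers of other anterior hormone cells (12 of 12 lower) and of endothelial cells and pericytes (4 of 5 tested lower) moved with the targets that fell. Several of these markers passed the filter through corticotropes alone, so their direction was set by passing. The part of these cells was not tested.

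**Figure D4:**
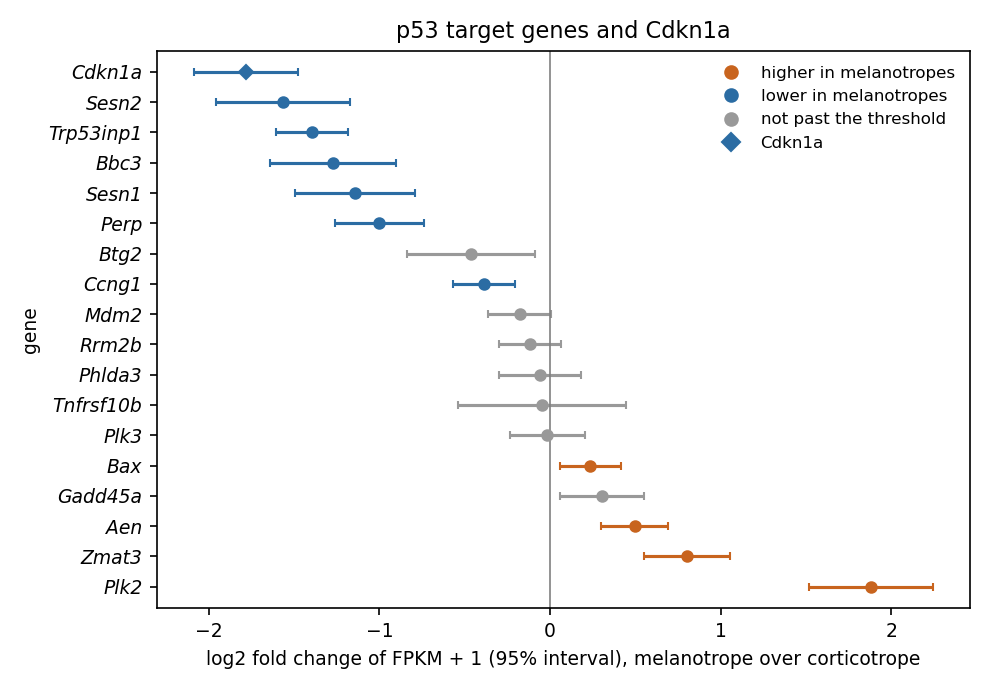
Log2 fold change with 95% interval, melanotrope over corticotrope, of the 17 tested p53 targets (circles) and Cdkn1a (diamond), coloured by call. Cdkn1a at -1.78 is the lowest of those drawn and Plk2 at 1.88 the highest, on the rescaled values.

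Of 19 further cyclin and CDK genes 3 fell and 0 rose (limma), beside 18.3% and 18.9% of all genes, with a median of -0.12 on the log2 scale. At an unadjusted p under 0.05 (limma) 6 were lower and 0 higher, beside 3052 lower and 3092 higher of all 13046 genes. Ccnl1, a cyclin of splicing kinases, fell from 40.8 and 36.0 to 23.1 and 25.3 FPKM. Cdk5r1, the activator of the neuronal kinase CDK5, fell from 5.55 and 5.08 to 3.20 and 3.16 FPKM. Without corticotrope replicate 1 there were 6 lower, and on the deposited scale 17, where 66.8% of all genes were lower.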

How the data were processed

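The 4 columns of FPKM, 1 value for each RefSeq transcript, are the authors' output of HOMER (analyzeRepeats, exons, mm10), per the file headers. A second HOMER step, getDiffExpression, gave the authors' log2 fold changes, p-values and FDR from the FPKM, again according to the headers. TopHat, HOMER and edgeR, with builds GRCm38 and mm10, are listed in the submitters' processing notes. Tool versions, strand setting and how read pairs counted: not given in the sources used here.

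Columns were divided by trimmed means of M values (unweighted, 30% of M and 5% of A trimmed, over 13153 genes at 1 FPKM in 2 libraries, a gene set chosen after values were seen), 1.21 and 1.16 for corticotropes and 0.874 and 0.819 for melanotropes. Each gene was its longest transcript. Genes with 1 FPKM in at least 2 libraries were fitted with limma 3.58.1 in R 4.3.3 (trend, two-sided, Benjamini-Hochberg, threshold 0.05) on log2(FPKM + 1), and cell type was the sole term. Implied reads came from transcripts of at most 100 bases, 97.7% to 100% of whose low values lay within 0.1 step of a whole number. The fit was tested on simulated data, where the genes given a change were all called. Unchanged genes made up more of the calls than the threshold allows. Every change given was larger than that of Ccnd3 and went to a gene with a higher mean level than Cdkn1a. The simulation therefore did not cover either called member. Alternatives were other scalings, pseudocounts, filters and transcript choices, a replicate block, a single prior variance and leave-one-out fits, where the lone library was assumed to vary like the other cell type. Named list genes were up to 2 per direction with the smallest adjusted p, and another is not reported here. The members and the 7 lists were chosen with earlier results of these data known. The authors' logCPM and fold change columns were not used. Coordinates are the table's, on mm10, counted from 1.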

Additional observations from a re-analysis of the deposited data

How the results depend on the processing

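Of the inhibitors and D cyclins, 1 was called higher and 1 lower. On the deposited scale, with no rescaling, 0 were higher and 6 lower, beside 939 genes higher and 8787 lower of all genes, against 2469 and 2390 after rescaling. Leaving out 1 library gave 0 to 1 members higher and 0 to 2 lower, and 1416 to 1760 genes higher and 1608 to 1677 lower. Cdkn1a missed the filter without either corticotrope library, so that without replicate 2 no member was called lower. Log2 fold changes that turned sign, each on the deposited scale, were Cdkn1c (-0.17), Skp1a (-0.10) and Trp53 (-0.056). With replicate number as a block 3 members were lower, Cdkn1a, Cdkn1b (adjusted p = 0.0186) and Ccnd1 (adjusted p = 3.31e-04, limma), and 1 higher, 3 genes near Cdkn1c were higher, and over all genes 3661 were higher (28.1%) and 3542 lower (27.2%). Nothing in the labels ties libraries of equal number, and their deviations correlated at 0.525 across genes. Scaling factors from all genes, added after the data were seen, changed no member's call. Rounding to 2 decimals and few reads limit Cdkn2a.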
